A study of Mus musculus with 2 samples.

Results

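The Msrb3 and Wif1 neighbourhood is the stretch chr10:120000001-121000000 of the mouse genome in build mm9, and its members are the peaks of 5-hydroxymethylcytosine (5hmC) whose midpoint lies inside it. It held 9 of the 6726 peaks listed for mouse embryonic fibroblasts (MEFs) at passage 5 and 149 of the 60157 peaks listed at passage 0. The window was chosen by its number of passage 0 peaks, so that number is a description and nothing is read from it. It was the highest of any 1 Mb window on chromosomes 1 to 19 and X, with windows set at whole Mb. On that grid the next highest number was 146. With windows moved by 500 kb, the one with more members held 179. The passage 5 list played no part in the choice.

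Both libraries came from primary fibroblasts of C57BL/6 embryos at day 13.5, grown in serum-containing medium. The cells were harvested at passage 5 for one library and at passage 0 for the other. Fragments carrying 5hmC were captured with a chemical tag and sequenced, and a peak is a stretch in which such fragments piled up. Peak lists hold no expression values, so the fibroblast label could not be checked against markers. With 1 library per passage no difference between passages has a replicate check and no test was run, and the read depth is unknown. Intervals below are 95% exact ones. They take each peak as a separate event and hold no error other than that of counting. The score of a peak is the value the authors deposited in a column without a name or unit. It is used to order and class peaks within a list and, in an alternative setting, as a threshold of 100 in both lists. Scores of both passages are printed for the pairs, but nothing is read from their difference. The lowest score was 81.5 at passage 5 and 80 at passage 0.

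5hmC is made from 5-methylcytosine by the TET dioxygenases, both as a step towards removal of the methyl group and as a lasting mark. In differentiated cells it is typically found in gene bodies and at enhancers and is scarce at the CpG-rich promoters of active genes. Msrb3 encodes a methionine sulfoxide reductase, which repairs oxidised methionine in proteins. Wif1 encodes a secreted protein that binds Wnt ligands and inhibits their signalling. Per the rule that defines the window, Msrb3 lies near chr10:120213000-120336000 and Wif1 near chr10:120471000-120538000. These borders are approximate and no mm9 annotation was used here, so exons, introns and UTRs were not assigned. In the RefSeq gene order of build GRCm38, the protein-coding genes run Hmga2, Msrb3, Lemd3, Wif1 and Tbc1d30 in this neighbourhood. Lemd3, which encodes a protein of the inner nuclear membrane, thus lies between the 2 named genes, and Hmga2, which encodes an architectural chromatin protein, is the next coding gene on the other side of Msrb3. None of these neighbours was placed in mm9 coordinates.

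The promoters of both genes are shown because the starts of the 2 genes differed in their surrounding peaks. Each sequence runs from 250 bases upstream to 50 bases downstream of the start of the gene, in the direction of transcription, from RefSeq in build GRCm38.p6 on chromosome 10. Msrb3 lies on the minus strand and Wif1 on the plus strand. Capitals mark CpG, the base pair step CG at which most methylation and 5hmC of mammalian cells is found. CG reads the same on both strands.
Msrb3: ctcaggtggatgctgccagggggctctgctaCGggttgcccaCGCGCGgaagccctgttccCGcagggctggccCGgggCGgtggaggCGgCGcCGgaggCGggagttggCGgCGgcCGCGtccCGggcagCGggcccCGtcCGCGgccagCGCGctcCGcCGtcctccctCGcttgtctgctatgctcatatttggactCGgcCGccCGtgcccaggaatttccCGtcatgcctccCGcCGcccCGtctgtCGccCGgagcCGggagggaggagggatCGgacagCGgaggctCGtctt
Wif1: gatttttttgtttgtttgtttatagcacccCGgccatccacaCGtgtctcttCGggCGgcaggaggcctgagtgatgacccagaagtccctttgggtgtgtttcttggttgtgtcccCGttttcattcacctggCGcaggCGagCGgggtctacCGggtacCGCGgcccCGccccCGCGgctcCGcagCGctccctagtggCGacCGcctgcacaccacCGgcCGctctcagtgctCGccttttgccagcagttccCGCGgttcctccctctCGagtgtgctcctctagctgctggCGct

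Both promoters were rich in CpG. The Msrb3 promoter held 38 CpGs in its 300 bases and the Wif1 promoter 25, against a median of 7 over 32851 RefSeq promoters of that length. At least 38 were held by 4.95% of those promoters and at least 25 by 18.4%, while 94.6% held at least 1. Near the start of Wif1 no peak was listed within 5 kb at either passage. The nearest passage 0 peaks there were chr10:120464714-120465321, with a score of 89.0 and 5.68 kb upstream of the start, and chr10:120477834-120479028, with a score of 185 and 6.83 kb into the gene. At the start of Msrb3 no passage 5 peak lay within 5 kb, but 5 passage 0 peaks did. The closest were chr10:120336498-120337897, with a score of 239 and 0.498 kb upstream of the start, and chr10:120334044-120335040, with a score of 203 and 0.96 kb into the gene. The 1457 bases between them held no peak and contain the approximate start, which is given to the nearest kb only. At the far end of Msrb3, the nearest passage 0 peak lay 3.60 kb outside the gene, at chr10:120208763-120209398 with a score of 175. At the far end of Wif1 it lay 2.11 kb inside the gene, at chr10:120534969-120535889 with a score of 180. Msrb3 is 123 kb long by the rule but 118 kb in GRCm38, while the stretch between the genes is 135 kb in both. The far end of Msrb3 is thus less certain, and another peak may be the nearest there.

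Peaks at passage 5 were few beside those at passage 0 and lay in the first part of the window. All 9 fell between bases 120019172 and 120352702, a span of 334 kb, and the last 647 kb of the window had none. The count of 9 has a Poisson interval of 4.12 to 17.1. It was not low among windows, as 92.5% of 1 Mb windows with a peak in either list held fewer. Before and after a gene here mean at lower and at higher coordinates. Msrb3 is transcribed towards lower coordinates, so the stretch before it is on its downstream side. By gene, 7 of the 9 peaks lay before Msrb3, 1 inside Msrb3 and 1 between Msrb3 and Wif1. Inside Wif1 and after it there were 0. The 149 passage 0 peaks lay along the whole window, with 50 before Msrb3, 32 inside Msrb3, 10 between the genes, 9 inside Wif1 and 48 after Wif1.

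**Figure D1:**
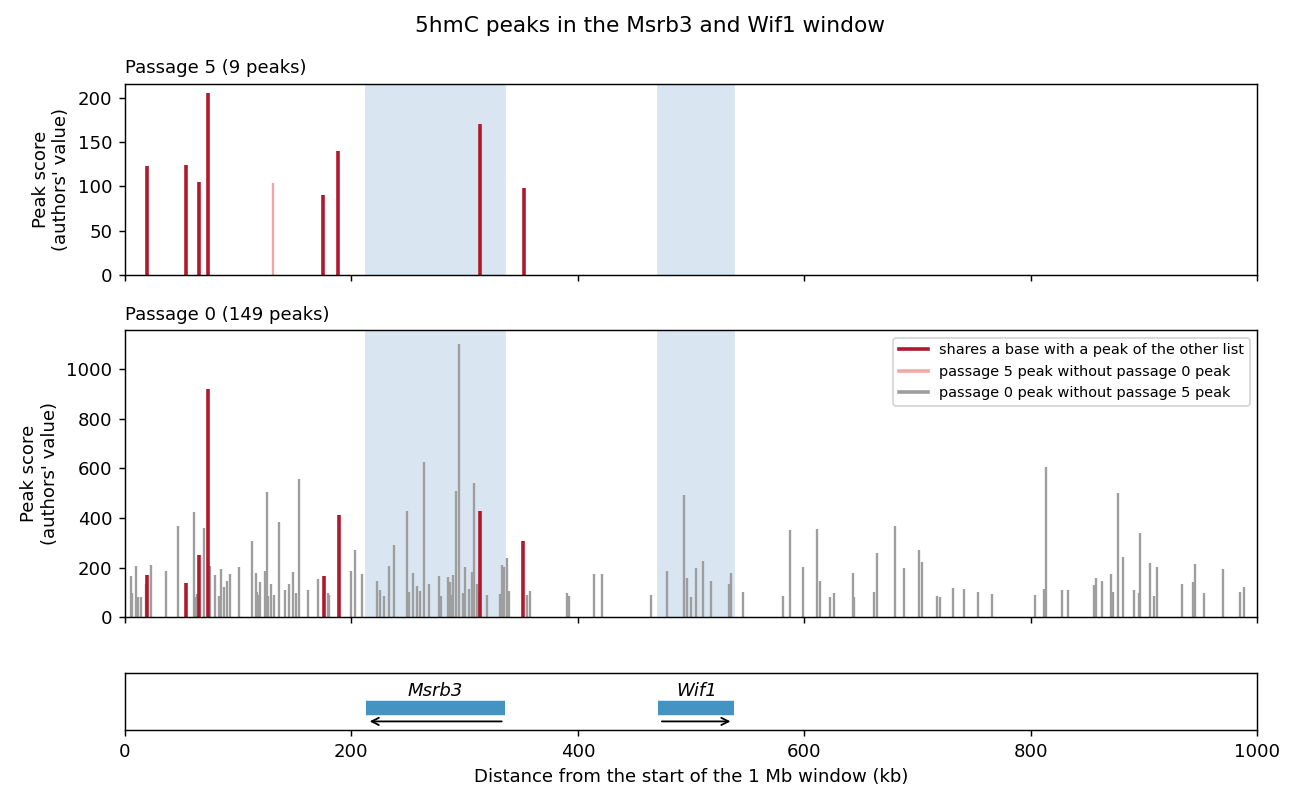
Peaks along the window, with the distance from its start in kb on the horizontal axis and the authors' score of each peak as the height of its line, at passage 5 (upper panel) and passage 0 (middle panel, own scale). Shaded stretches and blue bars mark Msrb3 and Wif1 by their approximate borders, arrows give the direction of transcription, and Msrb3 is read towards the left. The 9 passage 5 peaks stand in the first part of the window. The 149 passage 0 peaks run through all of it, but are more dense before and inside Msrb3 than elsewhere.

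Passage 0 peaks were most dense inside Msrb3 and before it. Their density was 26.0 per 100 kb inside Msrb3 and 23.5 per 100 kb before it, against 7.41 between the genes, 13.4 inside Wif1 and 10.4 after Wif1. The first 3 stretches of 100 kb in the window held 24, 24 and 23 peaks. The stretch with the fewest, at 400 to 500 kb from the window start, held 6. Peaks covered 29.8% of Msrb3 and 25.6% of the sequence before it at passage 0, and 7.21%, 13.7% and 10.3% of the 3 other stretches in order. At passage 5 they covered 0.576% of Msrb3 and 2.10% of the sequence before it.

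Msrb3 and Wif1 together held 1 of the 9 passage 5 peaks, 11.1% (0.281% to 48.2%), and 41 of the 149 passage 0 peaks, 27.5% (20.5% to 35.4%). By their approximate borders they take up 19.0% of the window. Msrb3 takes up 12.3% of the window and held 21.5% of the passage 0 peaks. Wif1 takes up 6.70% and held 6.04%. The stretch before Msrb3 takes up 21.3% and held 33.6%, so the dense block was not limited to the gene.

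**Figure D2:**
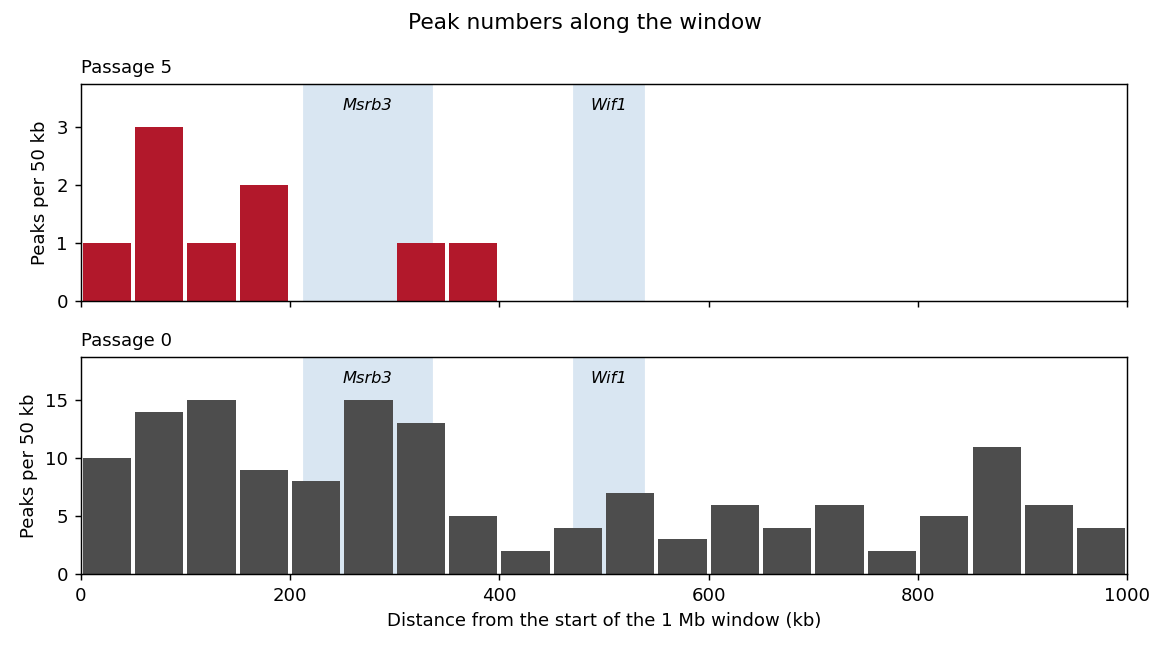
Number of peaks in consecutive stretches of 50 kb, by distance from the window start in kb, at passage 5 (upper panel) and passage 0 (lower panel, own scale). Shading marks the approximate extent of Msrb3 and Wif1. At passage 5 no stretch beyond 400 kb holds a peak, whereas at passage 0 every stretch holds at least 2.

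Gaps between passage 0 peaks differed along the window. The median gap between neighbouring members was 2831 bp, against 8627 bp over the whole list, a difference that the choice of the window fixes. It was 1348 bp inside Msrb3, 2094 bp before it, 6020 bp between the genes, 4208 bp inside Wif1 and 6757 bp after Wif1. Runs were counted as chains of peaks with gaps of at most 5 kb. Runs of at least 10 peaks held 44 of the 149 members, 29.5% (22.3% to 37.5%), against 3.8% of the whole list. A window picked for its many peaks favours such runs, so nothing is read from this excess. There were 3 of them. The longest was chr10:120111459-120154377, before Msrb3, with 16 peaks in 42.9 kb and 41.2% of its length covered. The next was chr10:120285003-120319869, in the part of Msrb3 near its start, with 15 peaks in 34.9 kb and 54.0% covered. The last was chr10:120060051-120093151, before Msrb3, with 13 peaks in 33.1 kb and 46.1% covered. In the other direction, the longest stretches without a passage 0 peak were chr10:120421926-120464713 (42.8 kb), between the genes, chr10:120766215-120803515 (37.3 kb) and chr10:120545869-120580393 (34.5 kb), both after Wif1. None of these held a passage 5 peak.

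The strongest passage 0 peaks lay in several parts of the window. Of the 10 highest scores, 4 were inside Msrb3, 3 before it, 2 after Wif1 and 1 inside Wif1. The highest was chr10:120293583-120297367 in Msrb3, 3785 bp wide with a score of 1101, which ranked 55 in the whole list. It was also the widest. The second was chr10:120072168-120074863, before Msrb3, 2696 bp wide with a score of 920 and rank 111. The third, chr10:120263296-120265526 in Msrb3, scored 626, and the fourth, chr10:120812835-120814439 after Wif1, scored 605. Next came chr10:120152698-120154377 before Msrb3 with 559, and in Msrb3 chr10:120307343-120309247 with 542 and chr10:120291270-120293054 with 507. The last 3 were chr10:120124572-120126473 before Msrb3 with 507, chr10:120875908-120878078 after Wif1 with 499 and chr10:120493240-120494564 in Wif1 with 492. The 5 widest members were the first 3 of these, the one with 499, at 2171 bp, and chr10:120202168-120204075 before Msrb3, at 1908 bp with a score of 270.

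Over all members the median score was 147 (quartiles 100 and 206) and the median width 947 bp at passage 0, against 129 and 850 bp in the whole passage 0 list. At passage 5 the 9 members had a median score of 123 and a median width of 633 bp, against 117 and 563 bp in the whole passage 5 list. Wider passage 0 peaks had higher scores, with a Spearman correlation of 0.83 over the 149 members and 0.79 over the whole list. Both values come from 1 library and are given as a description.

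Within Wif1 the 9 passage 0 peaks had scores of 185, 492, 156, 83.3, 198, 228, 147, 133 and 180 in order of position. The second was the highest, and the next highest was 228. Between the genes the 10 scores ran from 86.1 to 306 with a median of 104, the lowest median of the 5 stretches. The medians were 152 inside Msrb3, 168 before it, 180 inside Wif1 and 125 after Wif1.

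Overlap with a passage 0 peak, by at least 1 base, was found for 8 of the 9 passage 5 peaks, 88.9% (51.8% to 99.7%), against 69.9% of the whole passage 5 list, a value inside that interval. In the other direction, 8 of the 149 passage 0 members had a passage 5 peak, 5.37% (2.35% to 10.3%), against 7.63% of the whole passage 0 list, which also lies inside the interval. Each of the 8 was a pair of 1 peak with 1 peak.

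The pairs are given in order of position. The passage 5 peak chr10:120019172-120019972 had a score of 123 and met the passage 0 peak chr10:120019193-120020514, which had a score of 169. At chr10:120054100-120054732 the passage 5 score was 124, and the passage 0 peak chr10:120053765-120054843 had 140. At chr10:120065295-120065660 it was 105, and the passage 0 peak chr10:120064661-120065933 had 251. These 3 passage 5 peaks ranked above 58.6%, 58.9% and 33.9% of their list.

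The highest passage 5 score of the window, 206, belonged to chr10:120072853-120073622, and its passage 0 partner was the second strongest member, chr10:120072168-120074863, at 920. That site ranked above 93.5% of the passage 5 list and above 99.8% of the passage 0 list. Closer to Msrb3, chr10:120175012-120175587 had the lowest passage 5 score of the window, 89.9, and its partner chr10:120175074-120175905 had 165. At chr10:120188221-120188824 the passage 5 score was 140, and chr10:120188048-120189840 had 413 at passage 0.

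Inside Msrb3 the single pair was chr10:120313639-120314346 with 171 at passage 5 and chr10:120313248-120314577 with 429 at passage 0. It lies 21.7 kb from the approximate start of the gene, within the run of 15 peaks. Between the genes the single pair was chr10:120352233-120352702 with 98.3 at passage 5 and chr10:120350904-120352807 with 306 at passage 0.

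Passage 5 peaks of these pairs were the narrower ones in all 8. They were 366 to 801 bp wide, with a median of 618.5 bp, against 832 to 2696 bp and a median of 1326 bp for their passage 0 partners. The passage 5 width was 24.7% to 69.2% of the passage 0 width. In 6 pairs the whole passage 5 peak lay inside its partner, and in the other two 97.4% and 89.2% of it did. Midpoints differed by 80 to 612 bases. Peaks were narrower at passage 5 over the whole lists too, with a median of 563 bp against 850 bp at passage 0. The same counts over all pairs of the lists were not taken, so nothing is read from those of the window. The passage 5 peak without a partner, chr10:120130254-120130985, had a score of 104 and lay inside the run of 16 passage 0 peaks, 0.2 kb from the nearest of them. In the 3 runs of at least 10 peaks together, 3 of 44 passage 0 members had a passage 5 peak, 6.82% (1.43% to 18.7%), against 5 of the 105 outside them, 4.76% (1.56% to 10.8%), and the intervals overlap.

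Passage 0 members with a passage 5 peak had a median score of 279 (139.7 to 920) and a median width of 1326 bp. The 141 without one had a median score of 144 (80.9 to 1101) and a median width of 921 bp. The same order held in the whole list, at 214 and 125 for the score.

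Most high-scoring members had no passage 5 peak, and neither had most other peaks in the highest-scoring 10% of the whole list. Among the 10 strongest members 1 had one, namely the second, a share of 10% (0.253% to 44.5%). The share over all passage 0 peaks with scores as high as these was not taken, so nothing is read from this count. The strongest, in Msrb3, had none, and the nearest passage 5 peak was 16.3 kb away. The next 4 without one were those scoring 626, 605, 559 and 542, with the nearest passage 5 peak at 48.1 kb, 460 kb, 20.6 kb and 4.39 kb. Of the 23 members in the highest-scoring 10% of the whole list, 4 had a passage 5 peak, 17.4% (4.95% to 38.8%), against 24.5% of the 5994 other peaks in that class, which lies inside the interval.

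**Figure D3:**
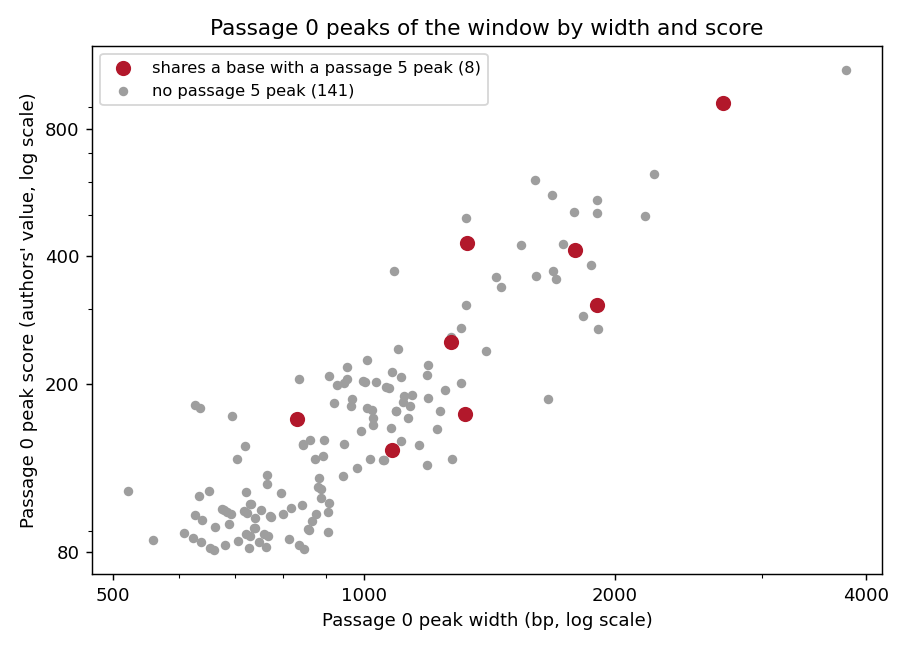
Width in bp and score of the 149 passage 0 members, both on log scales, with the 8 that share a base with a passage 5 peak as large red points and the 141 that do not in grey. The red points span widths of 832 to 2696 bp and scores of 139.7 to 920, and the highest point, at 3785 bp and a score of 1101, is grey.

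Members were also set against other passage 0 peaks of like score, since scores were somewhat higher in the window. The whole passage 0 list was divided into 10 classes by score, and each member was given the rate at which the peaks of its class outside the window had a passage 5 peak. These rates gave 13.2 members with a passage 5 peak, or 8.85%, where 8 were counted. The 8.85% lies inside the interval of the measured share.

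By stretch, 6 of 50 passage 0 peaks before Msrb3 had a passage 5 peak, a share of 12% (4.53% to 24.3%), where the class rates gave 4.72. Inside Msrb3 it was 1 of 32, 3.13% (0.0791% to 16.2%), where they gave 2.98. Between the genes it was 1 of 10, where they gave 0.697. Inside Wif1 it was 0 of 9, which allows a share of up to 33.3%, where they gave 0.867. In these 4 stretches the share at class rates lay inside the interval of the measured share. The interval holds counting error only and is no test, so no difference or likeness is read from it. After Wif1 it was 0 of 48, which allows a share of up to 6.25% by 3 counts and 7.40% by the exact interval, where the class rates gave 3.91 peaks, or 8.15%. That stretch held 6 members of the highest-scoring class, as many as Msrb3. It was 1 of 5 stretches looked at, the peaks share a library, and no test was run.

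**Figure D4:**
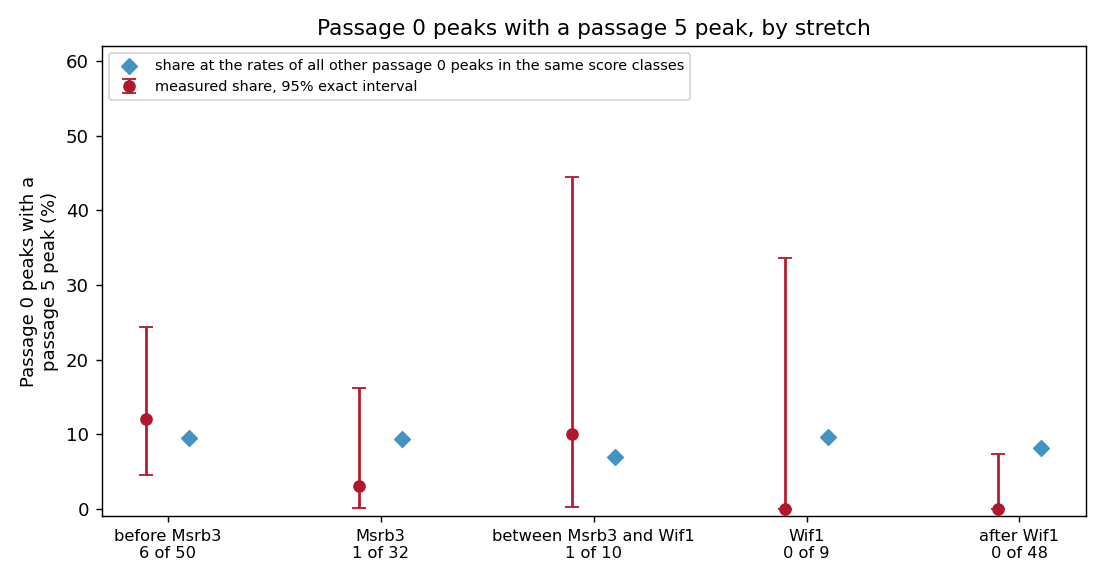
Percentage of passage 0 peaks that share a base with one at passage 5, for each stretch of the window, as circles with 95% exact intervals, and the share that the rates of all other passage 0 peaks of the same score classes would give, as diamonds. Counts stand under each stretch. Among the stretches shown, the diamond lies above the interval only after Wif1, with 0 of 48. The adjoining window at 121 to 122 Mb, not shown, had 1 of 49.

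Among 1 Mb windows the passage 5 count of 9 ranked 103, a place shared by 60 windows. Of the 2155 windows with a peak in either list, 102 had more passage 5 peaks and 92.5% had fewer, and the median window had 2 at passage 5 and 21 at passage 0. Peaks at passage 5 numbered 6.04% of those at passage 0 (2.71% to 11.8%), against 11.2% on the autosomes together, a value inside the interval. Choosing a window for many passage 0 peaks favours a low ratio. Covered bases were 5.66 kb at passage 5 and 158 kb at passage 0, a ratio of 3.59%, against 6.84% for the whole lists.

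The share of members with a passage 5 peak lay within the range of other windows rich in passage 0 peaks. Of 39 autosomal windows with at least 100 passage 0 peaks, 11 had a lower share with a passage 5 peak than the 5.37% here, and the range was 1.53% to 16% with a median of 6.84%. In the 4 windows next in passage 0 number, which were picked by that number too, 3 to 7 passage 5 peaks stood against 127 to 146 passage 0 peaks. Their shares with a passage 5 peak were 3.42%, 3.79%, 1.53% and 3.94%, all below the 5.37% here. On chromosome 10, the adjoining window on the Msrb3 side, at 119 to 120 Mb, had 4 at passage 5 and 115 at passage 0. The adjoining window on the other side, at 121 to 122 Mb, had 4 at passage 5 and 49 at passage 0. Passage 0 peaks were thus more numerous in the window on the Msrb3 side. The share with a passage 5 peak was 1.74% at 119 to 120 Mb and 2.04% at 121 to 122 Mb. Farther out it was 5.77% at 118 to 119 Mb and 4.23% at 122 to 123 Mb. The exact intervals of all these windows' shares hold the 5.37%.

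**Figure D5:**
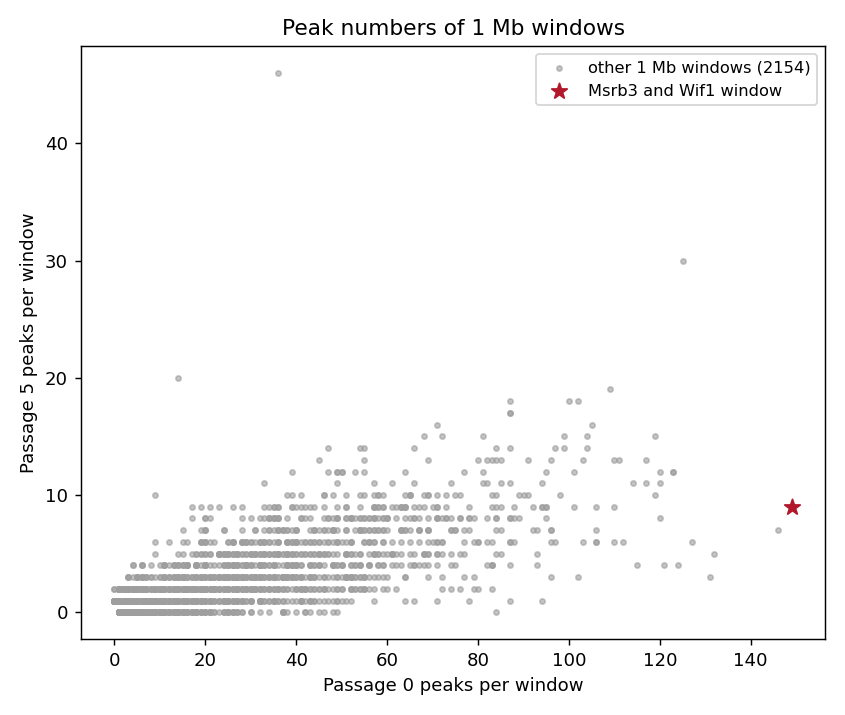
Passage 5 peaks against passage 0 peaks in each of the 2155 windows of 1 Mb that held a peak in either list. The star is the Msrb3 and Wif1 window, with 9 passage 5 and 149 passage 0 peaks. It stands farthest to the right by choice, and 102 windows lie above it.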

How the data were processed

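5hmC was measured in 2 libraries of mouse embryonic fibroblasts, 1 at passage 5 and 1 at passage 0, grouped by the source label of each sample. Per the submitters' processing notes, CASAVA 1.8, Bowtie 0.12.7, MACS 1.4.1 and build mm9 were used. The sources used here do not give the role of each tool, the peak threshold or any input control. Each library's deposited list gives the position, running name and score of every peak, the score in a column without a name. Read depth is unknown.

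Starts were converted to count from 1. Members had their midpoint in the window, and a peak was shared when at least 1 base overlapped a peak of the other list. The count of shared peaks equalled that of bedtools 2.31.1, and the overlap, merging and run steps returned the known answers on simulated data. Gene borders came from the rule that defines the window. RefSeq tables of GRCm38 gave names, gene order and promoter sequences. No coordinates were carried between builds. Regions named were all passage 5 members and their partners, the 10 highest and 5 widest passage 0 members, the 5 highest without a passage 5 peak, the peaks nearest to the gene ends, and the 3 longest runs and gaps. The members, stretches and lists were chosen with earlier results of these data known. Alternatives changed the score threshold, the overlap, merging, gene borders, run gaps and window grid. Python 3.11.15, numpy 2.4.6, pandas 2.3.3, scipy 1.17.1 and matplotlib 3.10.9 were used.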

Additional observations from a re-analysis of the deposited data

How the results depend on the processing

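Of 24 recomputed values for 9 results, 19 stayed within the exact interval of the reported share, or within 1.5 times the reported count or rank, and 5 moved beyond it. With peaks up to 5 kb apart counted as shared, 20.1% of the passage 0 members had a passage 5 peak, against 15.6% of the whole list. By construction this wider reach finds more partners where peaks are dense. With run gaps of at most 2 kb, 0 members (0%) lay in runs of at least 10 peaks, and with gaps of 10 kb 53.7% did. With a score of at least 100 the window ranked 2 by passage 0 peaks, with 112 left. With windows moved by 500 kb, the one with more members held 13 passage 5 and 179 passage 0 peaks, and its rank by passage 5 peaks was 29 in place of 103. Moved by 500 kb towards lower coordinates, the window takes in all 9 passage 5 members, which end by base 120352702. The adjoining window at 119 to 120 Mb held 4. Why peaks lie there was not tested. Score and width classes together, an alternative chosen after the data were seen, gave 12.7 members with a passage 5 peak in place of 13.2. No paired analysis was possible because each passage had 1 library, and no replicate could be left out. Unknown read depth limits every difference between passages, and a site without a listed peak may still carry 5hmC.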
